A study of Danio rerio with 4 samples.

Results

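The genes pfkfb3 (ENSDARG00000001953) and gapdhs (ENSDARG00000039914) belong to glycolysis, and their levels were followed over single epicardial-derived cells of the injured zebrafish heart. They are 2 of the 20905 genes with a count, and 1453 of 1536 sorted wells, those with at least 1000 transcripts, were used. Both genes were selected on measured values of these same plates. These may include their level and detection by plate and genotype, their shared wells and their correlated genes. Their own differences between genotypes are therefore given as a description without a test.

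In SORT-seq, a sorter drops 1 cell into each well of a plate, and every captured transcript is tagged for its well and with a random molecular barcode. The experiment addressed what Prrx1b, a homeobox transcription factor, does in the epicardium during heart regeneration. Cells came from adult ventricles at 7 dpi (days post-injury) after cryoinjury, a freeze injury of the ventricle wall. There were 2 plates of prrx1b-/- cells, homozygous for the el491 nonsense allele, and 2 plates of cells from wild-type (WT) siblings, with 20 hearts named for each genotype. All fish carried tcf21:CreERT2 and ubi:loxP-EGFP-loxP-mCherry, which the sample labels shorten to Tg(tcf21:mCherry), and were recombined with 4-hydroxytamoxifen as embryos. mCherry therefore marks cells in which the tcf21 promoter was active in the embryo and their descendants, and this labelling is known to be incomplete. Separate hearts are not named for each plate, so plates of 1 genotype may share hearts, and tests measure the spread between plates, which may be technical.

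Glycolysis splits glucose into pyruvate. Phosphofructokinase commits sugar to the pathway, and PFKFB enzymes make the small sugar phosphate that activates it most strongly, with PFKFB3 known as the form that favours making it over removing it. Further down, glyceraldehyde-phosphate dehydrogenase carries out the oxidation step. Its gene gapdhs takes its name from the mammalian sperm form, but in zebrafish it stands beside gapdh as a second gene for this step.

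The prrx1b-/- plates kept 366 wells each and the WT plates 357 and 364. The median well held 7654 and 7543 transcripts in prrx1b-/- plates, against 6055 and 5065 in WT plates. Mitochondrially encoded genes took 2.19 to 2.78% of the transcripts of a plate. At least 1 transcript of the 4 epicardial markers tcf21, tbx18, aldh1a2 and wt1b was found in 88.3% and 88.3% of wells in prrx1b-/- plates and in 86.8% and 86.0% in WT plates. A gene listed as PRRX1 (ENSDARG00000033971) had 97.0 and 138 CPM (transcripts per 1000000 of the plate) in prrx1b-/- plates, against 117 and 122 CPM in WT plates. The other gene of that symbol had at most 3.98 CPM, and the name table does not say which of them is prrx1b. The authors report that prrx1b was too low in these cells to be related to a cluster, a description closer to the rarer gene. Leukocyte markers summed to 36.6 and 38.8 CPM in prrx1b-/- plates, against 261 and 191 CPM in WT plates. Of this list of 10 genes, cd74a and cd74b held most, while ptprc had at most 4.46 CPM in any plate. Erythrocyte markers stood at 11.3 to 15.6 CPM in 3 plates and at 122 CPM in WT plate 2.

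pfkfb3 was higher in prrx1b-/- cells. It was counted 764 and 762 times in prrx1b-/- plates, against 363 and 331 times in WT plates. Scaled to the transcripts of the plate, this was 202 and 220.2 CPM in prrx1b-/- plates, against 125 and 126 CPM in WT plates. Both prrx1b-/- plates thus lay above both WT plates, a separation that 20.6% of the 11191 genes tested also showed. The means were 211 ± 12.6 CPM in prrx1b-/- and 125 ± 0.975 CPM in WT plates (SD, n = 2 each), a ratio of 1.69. The edgeR fit across all genes put the log2 fold change at 0.77 with a standard error of 0.14.

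gapdhs was also higher in prrx1b-/- cells, by a smaller margin relative to its spread. Its counts were 5092 and 4121 transcripts in prrx1b-/- plates, against 2621 and 2809.8 in WT plates. The levels were 1349.5 and 1191 CPM in prrx1b-/- plates, against 899 and 1069 CPM in WT plates, so that the lower prrx1b-/- plate and the higher WT plate were close. The means were 1270.4 ± 112 CPM in prrx1b-/- and 984 ± 120.1 CPM in WT plates (SD, n = 2 each), a ratio of 1.29. The log2 fold change was 0.38 with a standard error of 0.15. Without WT plate 1 it was 0.24, and without WT plate 2 it was 0.57, a spread that pfkfb3 did not show (0.73 to 0.83 when any 1 plate was left out).

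Because leukocyte and erythrocyte markers differed between plates, wells with at least 5 transcripts of these markers were left out in a further fit that was chosen after seeing the data. It removed 9 and 7 wells of prrx1b-/- plates and 20 and 24 wells of WT plates. pfkfb3 then had 206 and 224 CPM in prrx1b-/- plates, against 124 and 129.8 CPM in WT plates, and the log2 fold change was 0.78. gapdhs had 1359 and 1202 CPM in prrx1b-/- plates, against 902 and 1058 CPM in WT plates, with a log2 fold change of 0.40. Both differences were therefore as large without these wells.

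The genes differed in how many cells held them. A transcript of pfkfb3 was found in 55.7% (50.5 to 60.9%) and 53.3% (48.0 to 58.5%) of wells in prrx1b-/- plates, against 36.1% (31.1 to 41.4%) and 36.8% (31.8 to 42.0%) in WT plates. For gapdhs the share was 94.8% (92.0 to 96.8%) and 93.7% (90.7 to 96.0%) in prrx1b-/- plates, against 88.5% (84.7 to 91.6%) and 88.5% (84.7 to 91.6%) in WT plates. Ranges in parentheses are 95% intervals by the exact Clopper-Pearson method, for counting error only. Since prrx1b-/- wells were deeper, each well was also reduced to 1000 transcripts, taking the share expected over all possible draws. pfkfb3 was then expected in 20.1% and 20.2% of wells in prrx1b-/- plates, against 12.6% and 13.5% in WT plates, a difference of 7.12 percentage points. gapdhs was expected in 59.5% and 55.8% of wells in prrx1b-/- plates, against 49.5% and 51.3% in WT plates, a difference of 7.30 percentage points. At equal depth both genes were thus still found in more prrx1b-/- than WT wells. For pfkfb3 the difference depended on the depth chosen, at 10.5 points with 2000 transcripts and 18.0 points with all of them.

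**Figure D1:**
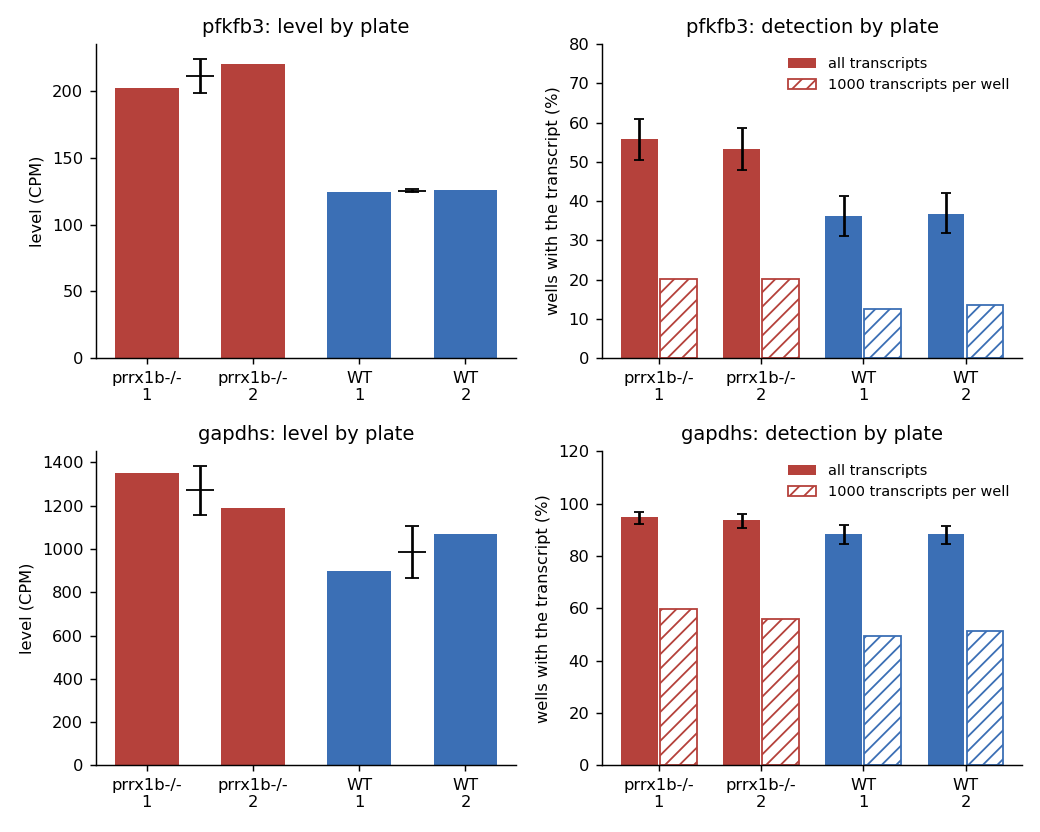
Level (left, CPM) and detection (right, percent of wells) of pfkfb3 and gapdhs in the 4 plates, prrx1b-/- in red and WT in blue. Black marks on the left are the mean and SD of the 2 plates of a genotype, filled bars on the right use all transcripts with 95% Clopper-Pearson intervals, and hatched bars are the share expected at 1000 transcripts per well. pfkfb3 stood at 202 and 220.2 CPM in prrx1b-/- and at 125 and 126 CPM in WT plates.

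Within a plate, a minority of cells held most transcripts of pfkfb3. The median well had 0.766 and 0.636 transcripts per 10000 in prrx1b-/- plates and 0 in both WT plates, while the well with the most had 57.4 and 73.9 in prrx1b-/- plates, against 31.3 and 44.0 in WT plates. The top 10% of wells by count held 53.2% and 50.6% of the pfkfb3 transcripts in prrx1b-/- plates, against 62.0% and 58.6% in WT plates. For gapdhs the top 10% held 48.4% and 46.7% in prrx1b-/- plates, against 45.8% and 51.7% in WT plates. By raw count its top wells thus held a somewhat smaller share than those of pfkfb3, and few wells had none. Because wells were ranked by raw count, these shares also depend on the depth of wells. Scaled to 10000 transcripts, 10% of the wells had 8.95 and 9.70 or more of pfkfb3 in prrx1b-/- plates, against 5.33 and 6.36 or more in WT plates. For gapdhs the median was 9.19 and 7.96 transcripts per 10000 in prrx1b-/- plates, against 6.75 and 6.81 in WT plates. Here 10% of the wells had 21.2 and 19.9 or more in prrx1b-/- plates, against 15.0 and 17.8 or more in WT plates. Relative to its median, gapdhs was thus spread more evenly over wells than pfkfb3.

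Toward the deepest wells, the levels of the 2 genes moved in opposite directions. In wells of 1000 to 3000 transcripts, pfkfb3 had 408 and 772 CPM in prrx1b-/- plates, against 284 and 336 CPM in WT plates. In wells of 3000 to 6000 transcripts, it had 587 and 423 CPM in prrx1b-/- plates, against 285 and 238 CPM in WT plates. The fall thus did not begin at the shallowest range in every plate. In wells of 12000 transcripts or more, it had 77.9 and 132 CPM in prrx1b-/- plates, against 65.3 and 45.0 CPM in WT plates. pfkfb3 was thus lowest in the deepest wells of every plate, and both prrx1b-/- plates lay above both WT plates in each of the 4 depth ranges, with mean ratios of 1.90 to 2.26. gapdhs was highest in the deepest wells, with 1631 and 1476 CPM in prrx1b-/- plates, against 1108 and 1463 CPM in WT plates. In wells of 1000 to 3000 transcripts, gapdhs had 1123 and 820 CPM in prrx1b-/- plates, against 836 and 735 CPM in WT plates. In wells of 3000 to 6000 transcripts, gapdhs was lower in every plate, with 911 and 784 CPM in prrx1b-/- plates, against 645 and 668 CPM in WT plates. Its ratio of means was 1.21 to 1.29 over the depth ranges, and the genotypes overlapped in the shallowest one. Across wells, log2 depth had a mean r over plates of -0.16 with pfkfb3 and 0.27 with gapdhs, given as a description because both axes share the well's total.

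**Figure D2:**
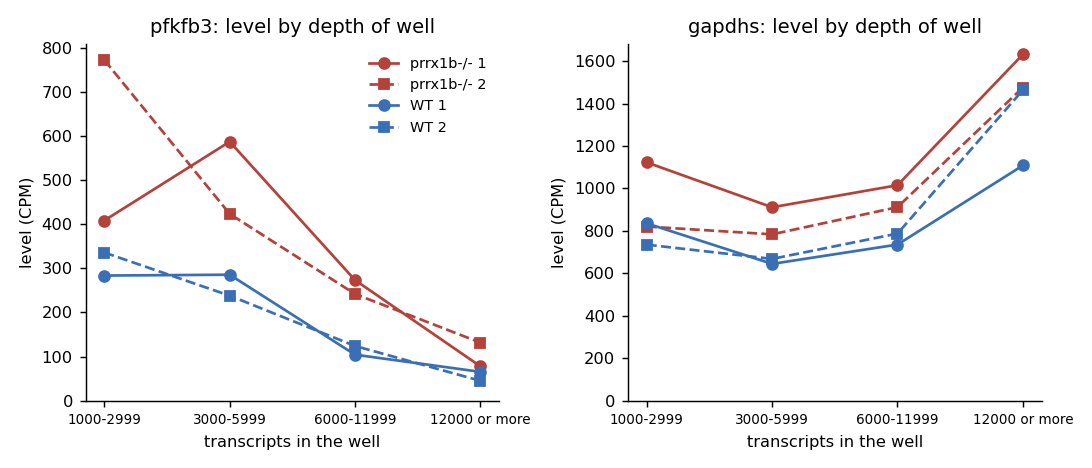
Level of pfkfb3 (left) and gapdhs (right) in CPM, summed over wells of the same depth range, for each plate (prrx1b-/- red, WT blue, plate 1 solid and plate 2 dashed). pfkfb3 falls to 45.0 to 132 CPM in wells of 12000 transcripts or more, where gapdhs reaches 1108 to 1631 CPM.

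The 2 genes shared wells about as often as the product of their separate shares. With all transcripts, 193 of 204 and 185 of 195 wells with pfkfb3 also held gapdhs in prrx1b-/- plates, against 125 of 129 and 127 of 134 in WT plates. Since gapdhs was found in nearly every deep well, the comparison was made at equal depth. At 1000 transcripts a well, both genes were expected together in 11.4% and 10.5% of wells in prrx1b-/- plates, against 6.72% and 7.12% in WT plates. The ratio of this share to the product of the separate shares of both genes was 0.953 and 0.930 in prrx1b-/- plates, against 1.08 and 1.03 in WT plates, with a mean of 0.998.

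The correlation between them was weak in every plate. Pearson's r of log2(1 + transcripts per 10000) across wells was -0.12 and -0.12 in prrx1b-/- plates (n = 366 wells each), against 0.09 and 0.03 in WT plates (n = 357 and 364 wells). The mean over plates was -0.03. By mean r, gapdhs ranked 2681 of 4906 genes for likeness to pfkfb3, and pfkfb3 ranked 4299 of 4906 for likeness to gapdhs. Wells of a plate share a library, and in counts this sparse so weak an r is no finding.

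**Figure D3:**
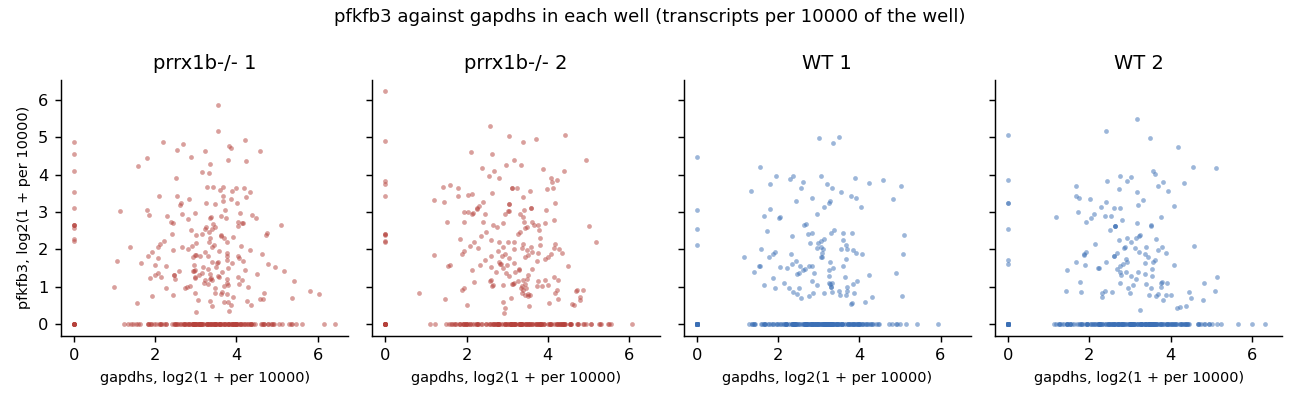
pfkfb3 (vertical) against gapdhs (horizontal) in each well as log2(1 + transcripts per 10000), with 1 panel a plate, prrx1b-/- in red and WT in blue. Wells without pfkfb3 lie along the bottom over the whole range of gapdhs, and r is between -0.12 and 0.09.

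The genes most like pfkfb3 over cells were stress and immediate early genes rather than glycolysis genes. Likeness was the mean over plates of Pearson's r across wells, among genes found in at least 10% of the wells of every plate, and only genes with an r of the same sign in every plate are named as highest or lowest. FOSL1, a subunit of the AP-1 transcription factor, came first with a mean r of 0.34 (0.42 and 0.38 in prrx1b-/- plates, 0.26 and 0.33 in WT plates). It was followed by ENSDARG00000059120 (0.32), the chaperone gene HSPA4 (ENSDARG00000004754, 0.31), ATF3, a transcription factor induced by stress (0.30), the proteoglycan gene sdc4 (0.29) and mych of the Myc family (0.29). MVP, which encodes the major vault protein (0.28), atf4b of the integrated stress response (0.27), higd1a, a hypoxia-induced mitochondrial protein (0.27), and ENSDARG00000033709 (0.27) completed the 10 highest. With depth partialled out FOSL1 kept an r of 0.32 and ATF3 one of 0.27, and after thinning to 1000 transcripts FOSL1 had 0.19 and ATF3 0.17. The lowest were si:ch211-198c19.3 (-0.28), both genes of the symbol COL12A1, a fibril-associated collagen (-0.25 and -0.22), ENSDARG00000061219 (-0.25) and MT-CO2, a mitochondrially encoded subunit of cytochrome oxidase (-0.22).

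Described by lists, 15 of 20 immediate early genes were among the top 5% of genes by likeness to pfkfb3, and their median r was 0.16 where that of all 4906 genes was -0.02. FOSB (0.19), FOSL2 (0.17), FOS (0.15) and egr1 (0.15) were among them. Of the heat shock genes, 10 of 20 were in the top 5%, with a median r of 0.08. In contrast, 0 of 14 glycolysis enzymes on the list were in the top 5%, and their median r with pfkfb3 was -0.06. These 14 include gapdhs, and the list holds no phosphoglycerate kinase. Among these, HK1, which phosphorylates glucose, had 0.06 and LDHB, a lactate dehydrogenase, had -0.14. HIF1A, the oxygen-regulated transcription factor, had an r of 0.00 with pfkfb3, and the 11 hypoxia-responsive genes measured had a median of -0.02. Immediate early and heat shock genes are known to respond to cell dissociation. Their sums were 14603 and 15073 CPM for immediate early genes in prrx1b-/- plates, against 17335 and 14065 CPM in WT plates. For heat shock genes they were 19169 and 20419 CPM in prrx1b-/- plates, against 20181 and 16382 CPM in WT plates. The genotypes overlapped in both lists, and the part of these genes in the pfkfb3 pattern was not tested.

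Of the 10 genes most like gapdhs, 3 were glycolysis enzymes. ENO1 (ENSDARG00000022456), an enolase, came first with a mean r of 0.34 (0.37 and 0.40 in prrx1b-/- plates, 0.25 and 0.35 in WT plates). A gene listed as PGK2 (ENSDARG00000054191), a phosphoglycerate kinase of the step that follows gapdhs, was second with 0.31, and ALDOA (ENSDARG00000011665), the aldolase upstream of it, had 0.29. The others of the 10 highest were krt18a.1, a keratin (0.31), ENSDARG00000003933 (0.29), cox6b1, a cytochrome oxidase subunit (0.29), ENSDARG00000040856 (0.29), TAGLN, an actin-binding protein of smooth muscle (0.28), EIF5A2, a translation factor (0.28), and COL11A1 (ENSDARG00000026165), a fibrillar collagen (0.27). With depth partialled out ENO1 had 0.26, PGK2 0.25 and ALDOA 0.20. The 10 highest then had 0.18 to 0.26, against 0.23 to 0.32 for the 10 most like pfkfb3. At 1000 transcripts a well ENO1 had 0.09. There the 10 highest had 0.06 to 0.13, against 0.11 to 0.19 for the 10 most like pfkfb3. As a set these values fell further than those of pfkfb3, but the ranges overlapped. The lowest were ENSDARG00000077505 (-0.35), the complement gene c4 (-0.26), HSD11B2, which inactivates glucocorticoids (-0.25), flnb, a filamin (-0.23), and ABLIM1, an actin-binding protein (-0.22).

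Of the other glycolysis enzymes on the list, 6 of 13 were among the top 5% by likeness to gapdhs. An r above 0 was found for 11 of the 13 and for 3649 of all 4906 genes. The median of the 13 was 0.14 where that of all genes was 0.04. PGK2 was not on that list. TPI1 (ENSDARG00000040988), which interconverts the triose phosphates, had 0.27, pgam1a, a phosphoglycerate mutase, had 0.26, and GPI, the isomerase of the second step, had 0.20. PFKL, a phosphofructokinase, had -0.03 and PFKFB4, the closest measured relative of pfkfb3 by function, had -0.05. The summed share of the other glycolysis enzymes in a well had an r with gapdhs of 0.47 and 0.51 in prrx1b-/- plates, against 0.34 and 0.36 in WT plates. With pfkfb3 the same share had an r of -0.19 and -0.18 in prrx1b-/- plates, against -0.07 and -0.11 in WT plates. The list values of this paragraph used all transcripts, without thinning or partialling out depth. As prrx1b-/- wells were deeper, depth may enter the genotype contrast, and its part was not tested. The immediate early genes had a median r with gapdhs of -0.06.

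**Figure D4:**
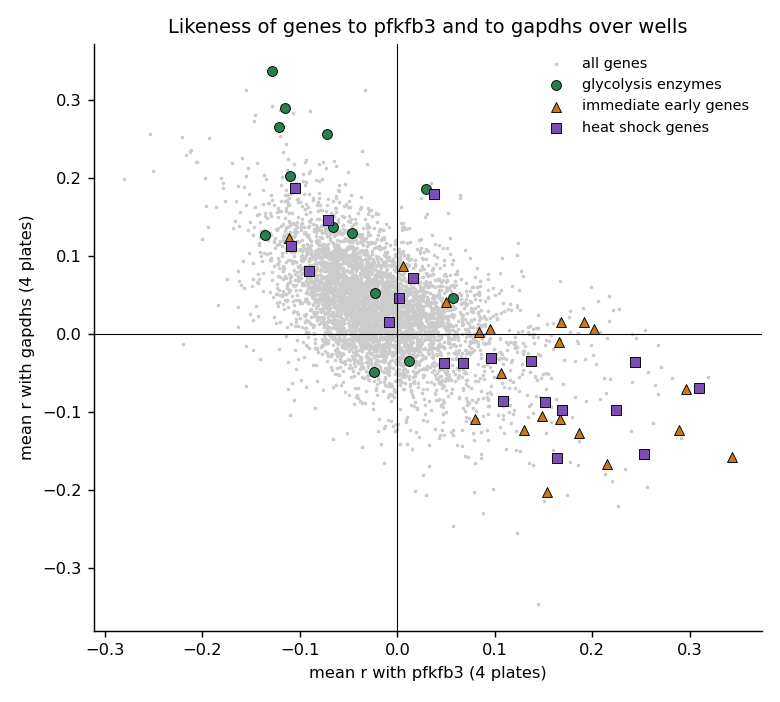
Mean r over the 4 plates with pfkfb3 (horizontal) and with gapdhs (vertical) for each gene found in at least 10% of wells, with listed glycolysis enzymes (green circles, PGK2 not among them), immediate early genes (orange triangles) and heat shock genes (purple squares) marked. Most glycolysis enzymes lie at the upper left (median r -0.06 with pfkfb3 and 0.14 with gapdhs) and immediate early genes at the right (median 0.16 with pfkfb3 and -0.06 with gapdhs). The median of the glycolysis enzymes with pfkfb3 counts gapdhs, which is not plotted.

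The genes also differed in which groups of cells held them. Wells were grouped into 10 clusters by k-medoids without pfkfb3, gapdhs and the other listed glycolysis enzymes. A cluster was named only where at least 3 markers of a class of the tcf21 lineage were raised, their mean standardised level over clusters was above 0.5, and no marker list of another cell type had more genes among the 10 leading ones, a rule set during the analysis. Over all plates together, pfkfb3 was highest in the 3 remote epicardium-like clusters, the class marked by tcf21, tbx18, HSPH1 and rtca. These held 176 wells led by AOC3 and ADM (527 CPM of pfkfb3), 86 wells led by the heat shock genes hsp70l and HSPB1 (454 CPM) and 65 wells led by the immediate early genes FOS and egr2a (431 CPM). Stress genes led 2 of these clusters, and ADM, a leading gene of the AOC3 cluster, is on the list of hypoxia-responsive genes. In the hsp70l cluster 6 of the 10 leading genes were on the heat shock list, and the only marker of the class among them, HSPH1, is itself a heat shock gene. In the FOS cluster 3 of the 10 were immediate early genes and 0 were markers of the class. In the AOC3 cluster 0 of the 10 were markers of the class as well. The median total of wells in the 3 clusters was 4079, 4041 and 4283 transcripts. The order differed in prrx1b-/- plates alone. By their mean the AOC3 cluster had 648 CPM of pfkfb3 and an unnamed cluster led by MYOC and mgp had 506 CPM. The hsp70l cluster had 500 CPM and the FOS cluster 383 CPM in the same plates. In WT plates the MYOC cluster had a mean of 79.6 CPM. pfkfb3 was lowest in the fibroblast-like cluster of 46 wells led by the collagen gene COL11A1 (33.4 CPM), whose median well had 17946 transcripts. Of the 10 leading genes of that cluster, 0 were on the list of fibroblast markers. At full depth this was the level of pfkfb3 over all plates together. At 1000 transcripts a well it was expected in 30.4%, 29.7% and 29.6% of the remote epicardium-like wells and in 3.47% of the COL11A1 wells.

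gapdhs ran opposite to pfkfb3 among the clusters where gapdhs was high, but not among those where it was low. Over all plates together it was highest in the COL11A1 cluster with 2396 CPM. It had 1486 CPM in the unnamed cluster of 157 wells led by the smooth muscle gene acta2 and by ACTC1, listed as a cardiomyocyte marker. In the unnamed cluster of 149 wells led by HBE1 and ifi44a8 it had 1269 CPM. In the remote epicardium-like clusters it had 829, 786 and 753 CPM, and the lowest level, 711 CPM, was in an injury epicardium-like cluster of 186 wells. That cluster held 132 WT and 54 prrx1b-/- wells. In prrx1b-/- plates alone its mean was 866 CPM, above the FOS cluster with 654 CPM and the hsp70l cluster with 782 CPM. The lowest cluster was remote epicardium-like with 12 clusters, Leiden clustering or wells of at least 2000 transcripts, but not with 8 clusters. The unnamed cluster led by MYOC and mgp had 763 CPM of gapdhs, so that the lowest 5 clusters lay between 711 and 829 CPM. At 1000 transcripts a well, gapdhs was expected in 76.0% of the COL11A1 wells. The highest cluster exceeded the lowest by 15.8 times for pfkfb3 and by 3.37 times for gapdhs. The same pair of clusters was also compared in single plates. For pfkfb3 the AOC3 over the COL11A1 cluster gave 20.6 and 14.5 in prrx1b-/- plates, against 12.5 and 12.1 in WT plates. For gapdhs COL11A1 over the injury epicardium-like cluster of 186 wells gave 2.39 and 2.63 in prrx1b-/- and 4.13 and 4.08 in WT plates. Each pair was fixed on all plates together, so these ratios are not highest over lowest in each plate. In WT plate 2, for instance, pfkfb3 had 648 CPM in the hsp70l cluster, above 370.3 CPM in the AOC3 cluster. As clusters were made from genes of the same cells, these are descriptions.

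Within clusters the genotypes could be set side by side. Both prrx1b-/- plates lay above both WT plates in 8 of 10 clusters for pfkfb3 and in 6 of 10 for gapdhs. The share of all genes was not computed within clusters, and both genes were chosen on values of these plates that may include their genotype levels. The COL11A1 cluster entered the pfkfb3 count on 5 and 11 transcripts in prrx1b-/- plates, against 4 and 12 in WT plates. With 12 clusters the separation held in 6 of 12 for pfkfb3 and in 7 of 12 for gapdhs. With 8 clusters it held in 7 of 8 and 5 of 8. Leiden clustering gave 7 of 13 and 9 of 13, and wells of at least 2000 transcripts gave 6 of 10 and 7 of 10. In the AOC3 cluster pfkfb3 had 708 and 587 CPM in prrx1b-/- plates, against 339 and 370.3 CPM in WT plates, without overlap. In the hsp70l cluster it had 364 and 636 CPM in prrx1b-/- plates, against 266 and 648 CPM in WT plates, and in the FOS cluster 507 and 260.0 CPM in prrx1b-/- plates, against 456 and 539.9 CPM in WT plates, so both overlapped. The widest gap was in an unnamed cluster of 69 wells led by MYOC and mgp, with 559.6 and 452 CPM in prrx1b-/- plates (11 and 29 wells), against 64.9 and 94.3 CPM in WT plates (10 and 19 wells). That WT level rested on 5 and 14 transcripts. For gapdhs the acta2 cluster had 2049 and 1479 CPM in prrx1b-/- plates, against 1096 and 869 CPM in WT plates. In the COL11A1 cluster gapdhs had 1979 and 2382 CPM in prrx1b-/- plates (4 and 12 wells), against 2682 and 2454 CPM in WT plates (7 and 23 wells), where WT was the higher.

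**Figure D5:**
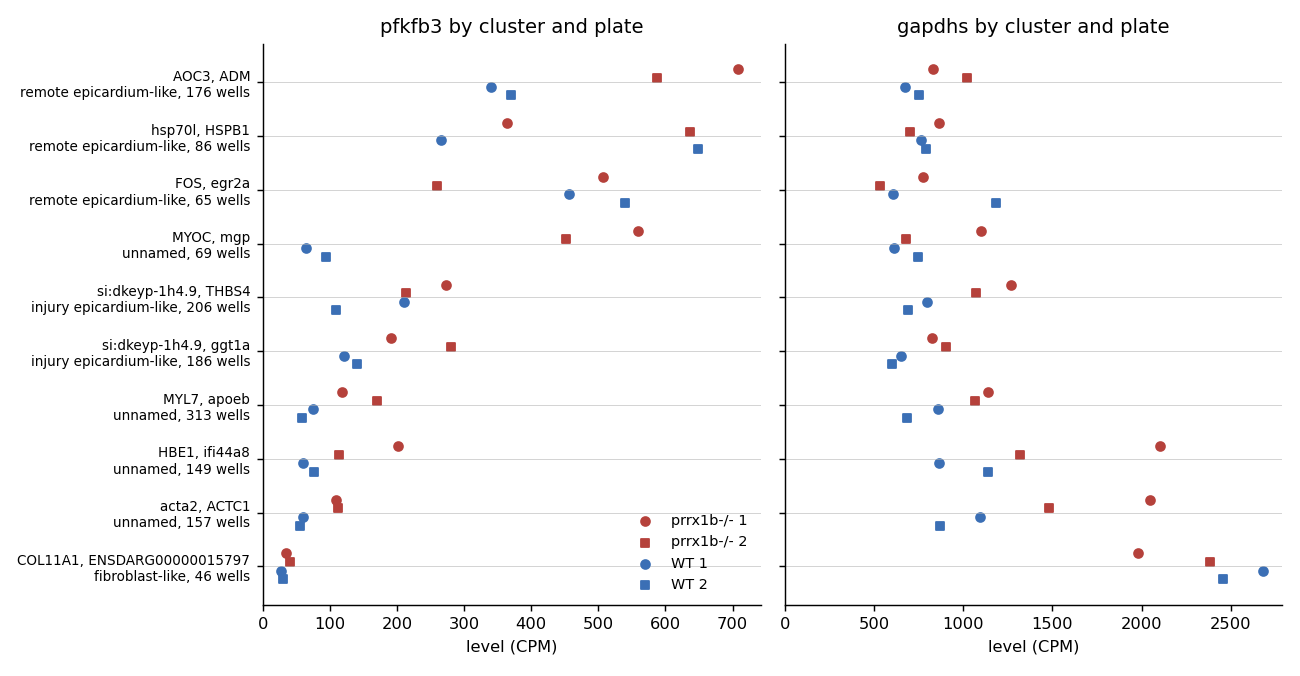
Level of pfkfb3 (left) and gapdhs (right), in CPM, in each of the 10 clusters and each plate (prrx1b-/- red, WT blue, plate 1 circles and plate 2 squares), with clusters ordered from the highest to the lowest pfkfb3 and labelled by leading genes, name and wells. The order is by the level over all plates together, which puts the 3 remote epicardium-like clusters at the top for pfkfb3 with 431 to 527 CPM. Single plates differ from this order. The COL11A1 cluster has 33.4 CPM of pfkfb3 and 2396 CPM of gapdhs.

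Most transcripts of their families came from these genes. Each count is the end of 1 transcript, so that genes of different length can be set side by side. pfkfb3 gave 86.8% and 86.0% of the transcripts of the 5 PFKFB genes in prrx1b-/- plates, against 69.4% and 79.8% in WT plates. PFKFB4, which encodes a related enzyme, had 19.6 and 22.0 CPM in prrx1b-/- plates, against 40.5 and 22.8 CPM in WT plates, with a log2 fold change of -0.59 ± 0.26 (SE, edgeR adjusted p = 0.325). pfkfb2a had 3.18 and 3.76 CPM in prrx1b-/- plates, against 6.86 and 6.09 CPM in WT plates (-0.88 ± 0.41, edgeR adjusted p = 0.365), and pfkfb4a stood at 3.04 to 9.54 CPM over the plates. Of the enzymes that oppose the activator, tigara and tigarb, phosphatases that degrade it, had 1.33 to 10.7 CPM, and fbp1a, of the reverse pathway, had 17.8 and 16.8 CPM in prrx1b-/- plates, against 29.2 and 26.6 CPM in WT plates (-0.67 ± 0.21, edgeR adjusted p = 0.163). In all, edgeR called 0 of the 6 other genes of this group that passed the filter. Of all 11191 genes it called 0.357% higher and 0.617% lower. At an unadjusted p under 0.05 there were 2 of 6, where all genes had 14.0%. DESeq2 gave an adjusted p to only 1 gene of the group and called 0, where it called 4.11% of 4283 genes. Of the 9 genes, 3 did not pass the filter.

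The second gene of the gapdhs step was rare. GAPDH (ENSDARG00000043457) had 5.30 and 5.21 CPM in prrx1b-/- plates, against 27.6 and 11.4 CPM in WT plates, and gapdhs gave 99.6% and 99.6% of the transcripts of both genes in prrx1b-/- plates, against 97.0% and 98.9% in WT plates. The log2 fold change of GAPDH was -1.88 ± 0.40 with an edgeR adjusted p of 0.0568, and both WT plates lay above both prrx1b-/- plates. It was called lower in edgeR without prrx1b-/- plate 1 (adjusted p = 0.0235), without prrx1b-/- plate 2 (0.00166), without WT plate 2 (8.2e-05), without the filter on low counts (3.11e-06) and with the plate number as a block (6.08e-06). Without the wells holding leukocyte or erythrocyte markers the log2 fold change of GAPDH was -0.60 (edgeR adjusted p = 0.591), and without WT plate 1 it was -1.13 (0.118). How reads that match both genes were assigned is not given in the sources used here, so GAPDH counts are uncertain. Of the phosphofructokinase genes, which the product of pfkfb3 activates, PFKP (ENSDARG00000028000) had 54.6 and 52.0 CPM in prrx1b-/- plates, against 33.3 and 38.8 CPM in WT plates (0.58 ± 0.18, edgeR adjusted p = 0.161). A further PFKP gene (ENSDARG00000012801) had 0.46 ± 0.24 and PFKL had -0.12 ± 0.24 on the same scale, and PFKM did not pass the filter.

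Across the listed enzymes of the pathway 1 gene passed the test. The list holds no phosphoglycerate kinase, so PGK2 is not in these counts and is given further below. Of 24 other glycolysis enzymes with a count, 16 passed the filter on low counts, and edgeR called 1 higher and 0 lower in prrx1b-/- cells at an adjusted p under 0.05, where 0.357% of all 11191 genes were called higher and 0.617% lower. At an unadjusted p under 0.05 there were 7 of 16, where all genes had 14.0%, and DESeq2 called 2 of the 13 to which it gave an adjusted p, where it called 4.11% of 4283 genes. The called gene was ALDOC, an aldolase, with 250.1 and 251 CPM in prrx1b-/- plates, against 152 and 152 CPM in WT plates, a log2 fold change of 0.74 ± 0.14 and an edgeR adjusted p of 0.0329. This call was lost without prrx1b-/- plate 1 (edgeR adjusted p = 0.256), without prrx1b-/- plate 2 (0.182) and after thinning wells to 1000 transcripts (0.185), while the fold change was 0.55 to 0.79 throughout. The median log2 fold change of the 16 genes was 0.34 where that of all genes was -0.01. In 11 of them both prrx1b-/- plates lay above both WT plates and in 2 below, against 20.6% and 24.2% of all genes. The number called was 4 without WT plate 1, where 579 of all genes were called, and 9, of which 2 were lower, without WT plate 2, where 582 were called, against 109 with all plates. Without either prrx1b-/- plate the 1 called enzyme was GAPDH, which was lower.

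None of the 3 enzymes most like gapdhs over cells passed the test. ENO1 (ENSDARG00000022456) had 478 and 437 CPM in prrx1b-/- plates, against 239.6 and 324 CPM in WT plates (0.71 ± 0.17, edgeR adjusted p = 0.0761). PGK2 (ENSDARG00000054191) had 711 and 656 CPM in prrx1b-/- plates, against 466 and 492 CPM in WT plates (0.53 ± 0.14, edgeR adjusted p = 0.102). ALDOA (ENSDARG00000011665) had 802 and 775 CPM in prrx1b-/- plates, against 536 and 637 CPM in WT plates (0.44 ± 0.15, edgeR adjusted p = 0.203). In each of them both prrx1b-/- plates were above both WT plates. Among the 10 genes most like pfkfb3 over cells, 2 had both prrx1b-/- plates above both WT plates and 0 below, and among the 10 most like gapdhs 6 were above and 1 below, against 20.6% and 24.2% of all genes. FOSL1 had 289.7 and 309.9 CPM in prrx1b-/- plates, against 484 and 235 CPM in WT plates, and ATF3 had 423 and 462 CPM in prrx1b-/- plates, against 549.6 and 349 CPM in WT plates, so both overlapped. MVP, which did not overlap, had 1451 and 1554 CPM in prrx1b-/- plates, against 1312 and 1203 CPM in WT plates. Of the 10 genes most like pfkfb3, edgeR and DESeq2 called 0, with 0 at an unadjusted p under 0.05. Of the 10 most like gapdhs, edgeR called 0 and DESeq2 called 2, with 4 at an unadjusted p under 0.05. Of all 11191 genes, edgeR called 0.357% higher and 0.617% lower, and 14.0% had an unadjusted p under 0.05. DESeq2 called 4.11% of 4283 genes.

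Steps before and after the pathway had no called gene in edgeR, and the counts by other rules are to be read against the same 14.0% at an unadjusted p and 4.11% by DESeq2. Counts by DESeq2 are out of the genes to which it gave an adjusted p. Among genes of glucose and lactate transport 0 of 8 were called (2 at an unadjusted p under 0.05, 0 of 4 by DESeq2). The main glucose transporter gene SLC2A1 (ENSDARG00000007412) had 79.0 and 117 CPM in prrx1b-/- plates, against 91.3 and 89.8 CPM in WT plates. Among genes of pyruvate entry to mitochondria 0 of 13 were called (1 at an unadjusted p under 0.05, 0 of 7 by DESeq2). Of the hypoxia-responsive genes 0 of 20 were called, with 6 at an unadjusted p under 0.05, 1 of 10 by DESeq2 and a median log2 fold change of 0.12. Immediate early genes had 0 of 23 called (5 at an unadjusted p under 0.05, 2 of 21 by DESeq2), with a median of -0.04. Heat shock genes had 0 of 21 called (7 at an unadjusted p under 0.05, 0 of 20 by DESeq2), with a median of 0.15. Of the leukocyte markers, cd74a (-3.19 ± 0.26, edgeR adjusted p = 0.000167) and cd74b (-2.92 ± 0.22, edgeR adjusted p = 0.000106), which chaperone MHC class II, fell in prrx1b-/- cells. Without the wells holding leukocyte or erythrocyte markers the values were -1.91 for cd74a and -1.93 for cd74b. Those wells were chosen in part by their cd74a and cd74b transcripts, so smaller values were built into that choice and no test is read from it. After thinning to 1000 transcripts cd74a had -2.22 and cd74b -3.09.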

How the data were processed

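Tests and levels start from the deposited tables, 1 for each plate of 384 wells. Per the labels and the methods, the authors made CEL-Seq2 libraries, mapped reads to Zv9, counted molecular barcodes and deposited expected counts, adjusted for repeated draws of 1 barcode and not scaled for depth. The labels give a molecular barcode of 4 bases, of which 256 exist, but 96.7% of the deposited values above 5 follow, within 0.011, the correction for 6 bases (4096 barcodes), and the highest implies 2615 different barcodes in a well. BWA 0.6.2 is named in the submitters' processing notes. The deposited barcode list was not used, and ERCC spike-ins were left out. The members and gene lists were chosen with earlier results of these data known. Symbols came from a table of gene IDs, which named 16194 of 20905 genes. PKM, LDHA, HK2 and PGK1 were among the symbols sought for the list of glycolysis enzymes, but they matched no gene with a count. The list thus holds no phosphoglycerate kinase, and PGK2 is named only for its likeness to gapdhs.

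Wells were kept from 1000 transcripts upward, and doublets were not looked for because 1 cell was sorted into a well. Expected counts were summed per plate and rounded, genes were kept by filterByExpr, scaled by TMM and tested with edgeR 4.0.16 (R 4.3.3, quasi-likelihood F test, 2 against 2 plates, Benjamini-Hochberg adjusted p under 0.05, two-sided). Standard errors are the fold change over the square root of F. CPM scale a gene's transcripts to 1000000 of the plate, cluster or depth range. Detection at 1000 or 2000 transcripts is the hypergeometric expectation over all draws. Thinned fits and correlations use 1 seeded draw. Clustering used 1336 genes with 20 noisy genes left out, and k-medoids from cluster 2.1.8.1. DESeq2 1.42.0, Leiden clustering with scanpy 1.11.5, other thresholds and left-out plates were alternatives. The tests were checked on simulated data.

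Named genes were both members, the other PFKFB and TIGAR genes, phosphofructokinase genes, gapdh, up to 10 called glycolysis enzymes and 5 of each other metabolic list, and the 10 highest and 5 lowest genes by mean r. SLC2A1, fbp1a, HK1, LDHB, TPI1, pgam1a, GPI, HIF1A, FOSB, FOSL2, FOS and egr1, as well as the leukocyte and erythrocyte genes, were chosen after their values were seen.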

Additional observations from a re-analysis of the deposited data

Results flagged for a closer look

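The correlation of pfkfb3 with gapdhs across wells had opposite signs in the genotypes. Pearson's r was -0.12 in both prrx1b-/- plates, against 0.09 and 0.03 in WT plates, and the group means differed by -0.18. The difference was not tested, and each r is weak. With log2 depth partialled out, r was -0.04 and -0.08 in prrx1b-/- plates, against 0.11 and 0.06 in WT plates. After wells were thinned to 1000 transcripts it was 0.02 and -0.17 in prrx1b-/- plates, against 0.03 and 0.02 in WT plates, so that the signs no longer separated the genotypes.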

How the results depend on the processing

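The log2 fold changes of pfkfb3 (0.71 to 0.83) and gapdhs (0.24 to 0.57) stayed above 0 in the 12 alternatives of each. They also moved by less than the spread between plates. For left-out plates that rule could hardly fail, because the spread was computed from the same plates, so it decides nothing there. The number of genes called between genotypes was 109, of which 40 were higher. It was 176 with DESeq2 (96 higher, 80 lower), 523 without a filter on low counts, 200 without wells holding leukocyte or erythrocyte markers (added after seeing the data), and 99 to 582 when 1 plate was left out. The group of other glycolysis enzymes had 1 called gene, against 2 with DESeq2 (ALDOC and ENO1), 4 without the filter, 3 without the marker wells, 0 after thinning to 1000 transcripts (edgeR, with 5 at an unadjusted p under 0.05), and 1 to 9 when 1 plate was left out. The called enzyme was GAPDH, lower, in place of ALDOC, higher, when either prrx1b-/- plate was left out. With the plate number as a replicate block, 476 genes and 4 glycolysis enzymes were called. The plates share only a number, and the deviations of same-numbered plates from their group means had r = 0.04. The detection difference of pfkfb3 was 18.0 points without thinning and 10.5 at 2000 transcripts. For plates left out in turn, it was 6.69 to 7.55 points for pfkfb3 and 5.41 to 9.19 for gapdhs, the ratio of shared wells was 0.971 to 1.02, and mean r was -0.07 to 0.00. The highest over the lowest cluster for pfkfb3 was 21.0 with Leiden clustering. The cause of these changes was not tested. Depth limits what the shallow wells show: at 1000 transcripts a well, pfkfb3 was expected in at most 20.2% of the wells of a plate.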
